A study of Mus musculus with 8 samples.

Results

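The 9 genes described here encode antiviral effector proteins, the products with which a cell acts on a virus directly. They are Mx1, Mx2, Rsad2 (viperin), Cmpk2, Bst2 (tetherin), Eif2ak2 (PKR), Isg20, Ifitm3 and Rtp4, taken as a named list from the 22180 genes measured. All 9 were on the array, each with 1 probe set that carried only its own symbol, so no choice between probe sets was needed. Signals were read on 8 arrays of mouse embryonic fibroblasts (MEFs), labelled as primary cells, in which the endogenous gene for STING was knocked out (STING-/-). STING is the adaptor of the endoplasmic reticulum that passes on the alarm raised by cytosolic DNA. Every line was cultured in DMEM with serum and differed by what had been put back. The vector line carried empty pBabe, the hSTING line carried hSTING, the N154S line carried the mutant that the series' design text links to the disease SAVI, and the R284S line carried the R284S variant. Each line gave a control array and an array of cells transfected for 9 h, by Lipofectamine 2000, with double-stranded DNA (dsDNA). No line and treatment was repeated, so single values are given without an error. The labels do not say whether a line was a clone or a pool, which species' sequence the mutants had, what strain the cells came from, or whether control cells received Lipofectamine.

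Cells that sense viral nucleic acid make type I interferon, which signals through its receptor to a complex of STAT proteins with IRF9 and turns on a large set of genes, these among them. Some can also be switched on without interferon, by the transcription factor IRF3 that STING activates. The Mx proteins are dynamin-like GTPases that trap viral nucleocapsids. Viperin turns a nucleotide into a chain terminator for viral polymerases, and Cmpk2 is a mitochondrial nucleotide kinase. Tetherin holds budding virions at the cell surface, PKR shuts down translation when it binds double-stranded RNA, and Isg20 is an exonuclease that degrades RNA. Ifitm3 blocks fusion of virions in endosomes, and Rtp4 is a zinc finger protein known both as a receptor chaperone and as an inhibitor of some RNA viruses.

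Because members differed between lines in part together, the starts of their genes were searched for the interferon-stimulated response element (ISRE), the site bound by IRFs and by the STAT complex with IRF9. The search used the letters GAAANNGAAA on both strands of windows from 250 bases before to 50 bases after each start, taken from RefSeq on build GRCm38.p6. No source used here names the build of the array. Windows were at hand for 6 of the 9 genes, 8 windows in all, and 4 windows, of 4 genes, held a match. Over all 32851 windows of the same length, 3.44% held 1. The stretches are shown 5′ to 3′ along each gene's own strand, with the matched letters in capitals, to set the sequence beside the signals given below.
Rsad2: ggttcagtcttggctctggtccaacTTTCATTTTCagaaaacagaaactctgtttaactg
Bst2: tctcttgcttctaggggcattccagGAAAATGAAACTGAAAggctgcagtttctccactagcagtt
Eif2ak2: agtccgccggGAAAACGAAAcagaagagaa
Ifitm3: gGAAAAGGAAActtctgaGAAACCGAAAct
The Rsad2 stretch is chr12:26456538-26456597, the Bst2 stretch chr8:71537562-71537627, the Eif2ak2 stretch chr17:78882535-78882564 and the Ifitm3 stretch chr7:141010714-141010743, all on the minus strand. The match of Rsad2 began 120 bases before the annotated start, on the opposite strand. In Bst2 2 overlapping matches that share a GAAA began 130 and 124 bases before it. The Eif2ak2 match began at base 19 of the transcript, and those of Ifitm3 at bases 3 and 20. The windows of Cmpk2 and Isg20 did not hold these letters, which says nothing of sites elsewhere. A second motif, GAS, with the letters TTCNNNGAA, was searched in the same windows and is not marked in the stretches. It matched in 4 of the 8 windows, of 4 genes, against 8.3% of all windows. Those genes were Isg20, with a match 73 bases before a start, Ifitm3, Bst2 and Eif2ak2. A match is a string of letters and was not tested as a binding site. In RefSeq, Rsad2 and Cmpk2 lie next to each other and point away from each other. RefSeq also classes Mx1 and Mx2 on this C57BL/6J assembly as transcribed pseudogenes, where the other 7 members are protein coding, so their RNA signal does not show that a working protein was made.

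Signals are log2 array values as deposited, and a difference of 1 is 2-fold. The median signal of the named genes, 4.42 to 4.47 on the 8 arrays, served as a floor. A signal below the floor is not read as a level, and a fold against it is given as at least the fold over the floor. A gene was counted as 2-fold higher or lower only where its brighter signal reached the floor. In bulk RNA, fewer cells that express a gene and less RNA per cell cannot be told apart. The 9 fibroblast markers were above the floor on all arrays, with a mean of 9.32 to 10.28, but they were not level across the lines. In R284S against vector control cells 5 of 9, Col1a1, Col3a1, Pdgfra, Thy1 and Lum, were 2-fold lower, with a median difference of -1.02 over the list, and in N154S cells 1 of 9, Col3a1, with a median of -0.61. Over both treatments in limma 5 of 9 fell in R284S and 3 of 9 in N154S against vector cells, with smallest adjusted p = 0.00187 and adjusted p = 0.0101, and 3 of 9 fell in R284S against hSTING cells. Their part in the members' differences, which ran the other way, was not tested. Of the 6 macrophage markers Cd68 was above the floor on all arrays and Ptprc, Adgre1 and Itgam below it on all 8, and the list's mean stayed between 3.67 and 4.01. Of the 4 epithelial markers Krt8 was above it on all arrays and Epcam and Cdh1 below it on all, with a mean of 3.99 to 4.08. Of the 4 endothelial markers Pecam1 and Tek were below it on all arrays, with a mean of 3.78 to 4.32, and Kdr was 2-fold higher in hSTING than in vector cells with dsDNA. The 5 reference genes measured varied by at most 0.56 over the arrays. Sting1 read between 3.68 and 4.22, under the floor on every array, and the transgenes were not read out separately, so no value here checks which construct a line carried.

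Ifitm3 read 11.49 to 12.35, where the highest probe sets of an array read 13.11 to 13.22. Mx1 was below the floor on 6 of the 8 arrays. With signals under the floor set to it, Cmpk2 spanned 7.61 log2 units over the arrays, Rsad2 6.23, Rtp4 5.50, Mx2 4.19 and Ifitm3 0.86. Leaving out Mx1, the 8 other members had their lowest control signal and their lowest dsDNA signal in the vector line. The mean of the 9 members, each centred on its own average after the same step, was lowest in vector control cells at -2.29 and highest in hSTING cells with dsDNA at 1.62.

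**Figure D1:**
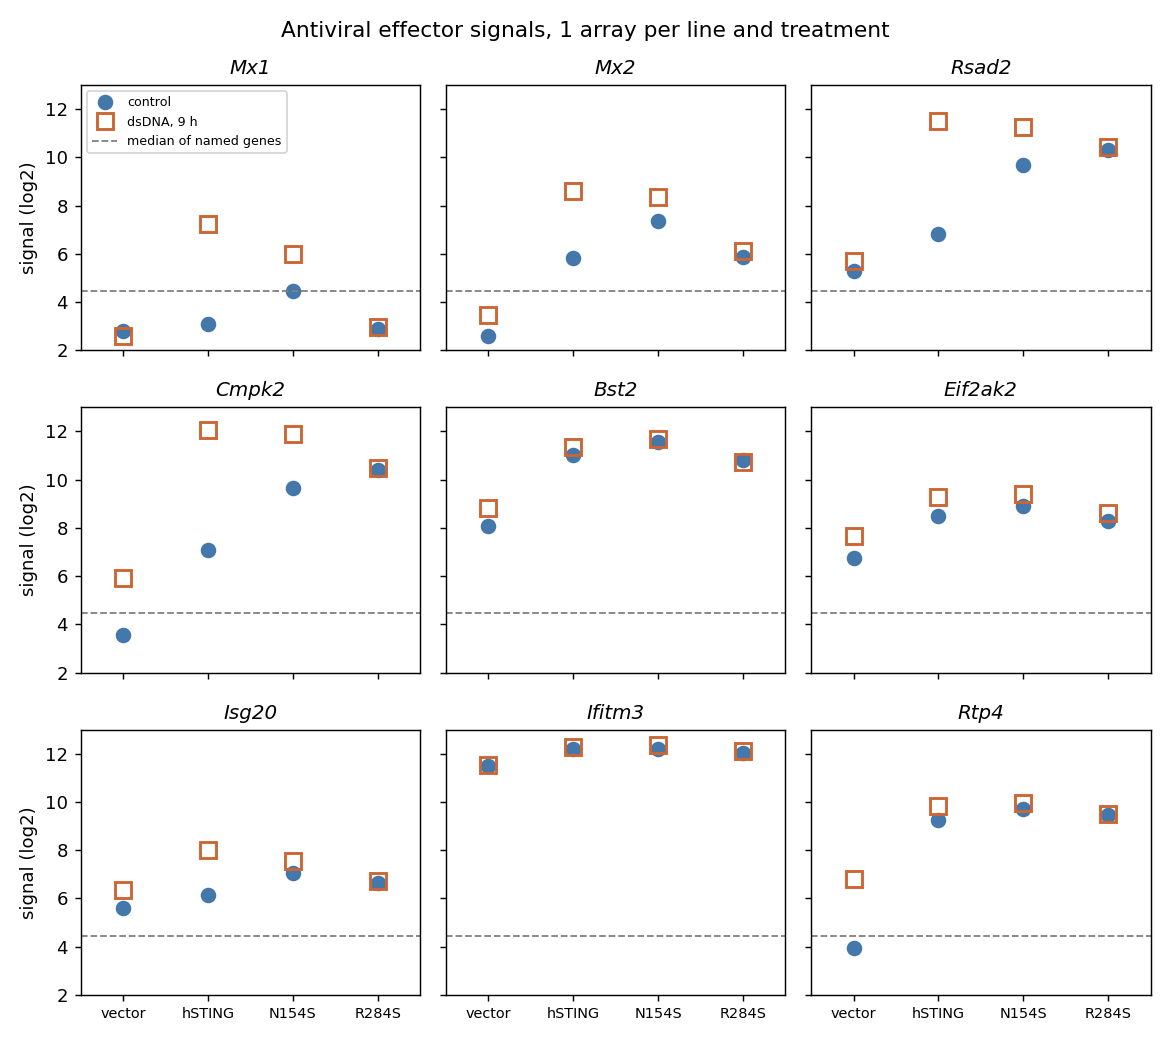
Signal (log2) of each antiviral effector gene in the 4 lines, with filled circles for control cells, open squares for cells after 9 h of dsDNA and 1 array per point. The dashed line is the median of the named genes. The R284S circles and squares nearly coincide in every panel, and Mx1 rises above the line only in hSTING and N154S cells with dsDNA.

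Without added DNA, hSTING cells already had higher signals than vector cells for most members. The 2-fold mark was passed by 6 of 9 members, against 0.415% of all genes higher by that rule, and the median difference of the members was 1.78, or 1.52 with signals under the floor set to it, where that of all genes was -0.01. Rtp4 read 9.25 in hSTING control cells and 3.96 in vector control cells, at least 27.9-fold higher. Bst2 read 11.04 against 8.07, 7.84-fold higher. Isg20 at 6.16 against 5.60, Ifitm3 at 12.18 against 11.49 and Mx1, under the floor in both, did not reach the 2-fold mark. Rsad2 was 2.87-fold and Cmpk2 at least 6.15-fold higher.

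Both mutant lines stood above vector cells for 7 of the 9 members in control cells, where 1.01% of all genes were 2-fold higher in N154S and 1.15% in R284S. The members' median difference was 3.47 in N154S and 2.74 in R284S cells, where that of all genes was 0.00 in both. With signals under the floor set to it, the members' medians were 2.92 and 1.54. Ifitm3 was 1.65-fold and 1.46-fold higher, and Mx1 read 4.45 in N154S cells, just under the floor of that array, and 2.89 in R284S cells. The antiviral pair Rsad2 and Cmpk2 differed among the 3 STING lines as well. Rsad2 read 5.28 in vector, 6.80 in hSTING, 9.69 in N154S and 10.30 in R284S control cells. Cmpk2 read 3.57, 7.07, 9.66 and 10.38 in the same order. For both genes the R284S line was the highest of the 4 and the hSTING line lay far below the mutants.

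The other members had another order. Mx2 read 2.59 in vector, 5.83 in hSTING, 7.37 in N154S and 5.88 in R284S control cells. R284S cells thus matched hSTING cells to 0.05 for Mx2 while exceeding them by 3.50 for Rsad2 and 3.31 for Cmpk2. Eif2ak2 read 6.73, 8.51, 8.89 and 8.27, and Bst2 8.07, 11.04, 11.54 and 10.81. In both, R284S was the lowest of the 3 STING lines, as it was for Ifitm3. For Rtp4, at 9.25, 9.71 and 9.47 in hSTING, N154S and R284S cells, and for Isg20, at 6.16, 7.07 and 6.63, R284S lay between hSTING and N154S cells.

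Counted by line, N154S control cells were 2-fold higher than hSTING control cells for Mx2, Rsad2 and Cmpk2 (3 of 9, all genes 0.532%), and, Mx1 aside, the other differences were above 0 as well, with Ifitm3 the smallest at 0.03. R284S control cells were 2-fold higher than hSTING control cells for Rsad2, 11.3-fold, and Cmpk2, 9.92-fold (2 of 9, all genes 0.703%). The others, leaving out Mx1 under the floor, lay between -0.24 and 0.47. Set against N154S control cells, R284S cells were higher for Rsad2 by 0.61 and Cmpk2 by 0.72, and lower for Mx2, Bst2, Eif2ak2, Isg20, Ifitm3 and Rtp4. Of these, Mx2 was 2-fold lower (1 of 9, all genes 0.302%). The split of Rsad2 and Cmpk2 from the other members was noticed after the values were seen and has no replicate check.

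Transfected dsDNA had its largest effect on the members in hSTING cells. There 5 of 9 were 2-fold higher than in hSTING control cells, against 2.01% of all genes. Rsad2 went from 6.80 to 11.51, 26.2-fold, and Cmpk2 from 7.07 to 12.06, 31.8-fold. Mx1 went from 3.08 to 7.22, at least 6.82-fold, Mx2 from 5.83 to 8.61 and Isg20 from 6.16 to 8.0. These 5 genes gained between 1.84 and 4.99, whereas Rtp4, Eif2ak2, Bst2 and Ifitm3 gained 0.60, 0.75, 0.32 and 0.09. Ifitm3 did not pass the 2-fold mark in any comparison.

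N154S cells, which started higher, gained less. Cmpk2 went from 9.66 to 11.88, 4.66-fold, Rsad2 from 9.69 to 11.24, 2.93-fold, and Mx1 from 4.45 to 5.97. These were the 3 members past 2-fold, where 0.379% of all genes were higher. Mx2 gained 0.97, just short of the mark, and the other 5 gained 0.14 to 0.52. After dsDNA the 2 lines read nearly alike: N154S differed from hSTING cells by between -0.44 and 0.33 in 8 members. Mx1 was the exception, 2.38-fold lower in N154S (1 of 9, all genes 0.559%).

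R284S cells showed no such gain. Differences between dsDNA and control ran from -0.06 for Bst2 to 0.36 for Eif2ak2, with a median of 0.09, and 0 of 9 members reached 2-fold in either direction. By the same rule 0.0676% of all genes, or 15, did so, so few genes of any kind differed in this line. The absolute difference of all genes had a median of 0.14 in R284S and 0.21 in hSTING cells. Rsad2 read 10.30 and 10.42, Cmpk2 10.38 and 10.49, and Mx1, under the floor both times, 2.89 and 2.95. Whether the DNA reached these cells as it reached the others was not tested.

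**Figure D2:**
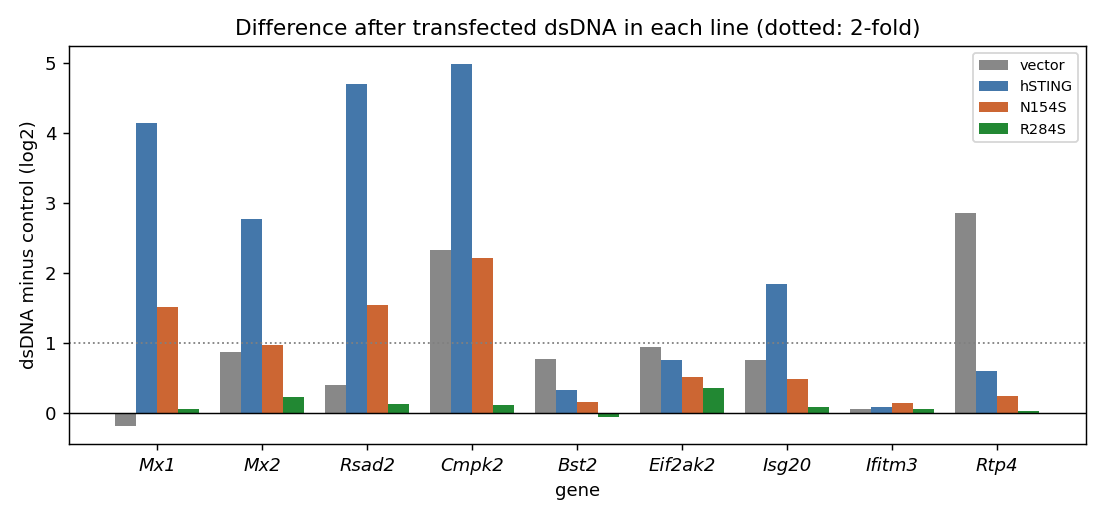
Difference in signal between dsDNA and control (log2) for each gene in each line, 1 pair of arrays per bar, with the dotted line at 2-fold. The hSTING bars reach 4.99 for Cmpk2, the R284S bars stay at or under 0.36, and the vector bars are the highest for Rtp4, Bst2 and Eif2ak2.

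With dsDNA, the order of the lines changed accordingly. R284S cells lay below both hSTING and N154S cells for all 9 members and above vector cells for 8, while Mx1 was under the floor in both R284S and vector cells. Bst2 read 8.84 in vector, 11.36 in hSTING, 11.69 in N154S and 10.75 in R284S cells, and Eif2ak2 7.67, 9.26, 9.41 and 8.63. Rtp4 read 6.82, 9.85, 9.95 and 9.49 in the same order, so the 3 STING lines lay close together. Mx2 read 3.46, 8.61, 8.34 and 6.10, which set R284S apart from the other STING lines. R284S cells were 2-fold lower than hSTING cells for 5 of 9, against 1.74% of all genes. Mx1 read 2.95 against 7.22, at least 6.77-fold lower, Mx2 6.10 against 8.61, 5.70-fold lower, and Cmpk2 10.49 against 12.06, 2.97-fold lower. Isg20 was 2.43-fold and Rsad2 2.13-fold lower. Set against N154S cells with dsDNA, Mx1, Mx2 and Cmpk2 were 2-fold lower in R284S (3 of 9, all genes 0.600%). R284S minus hSTING was above 0 in control cells and below 0 with dsDNA for 5 of 9 members, a count not made over all genes. For Rsad2 and Cmpk2 it was 3.50 and 3.31 in control cells and -1.09 and -1.57 with dsDNA, past 2-fold both times. For Mx2 it was 0.05 and -2.51, for Isg20 0.47 and -1.28 and for Rtp4 0.22 and -0.36. The absolute difference of all genes in the control comparison had a median of 0.17, so the sign of a value as small as 0.05 carries little. These values come from single arrays, and the change between treatments was not tested.

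**Figure D3:**
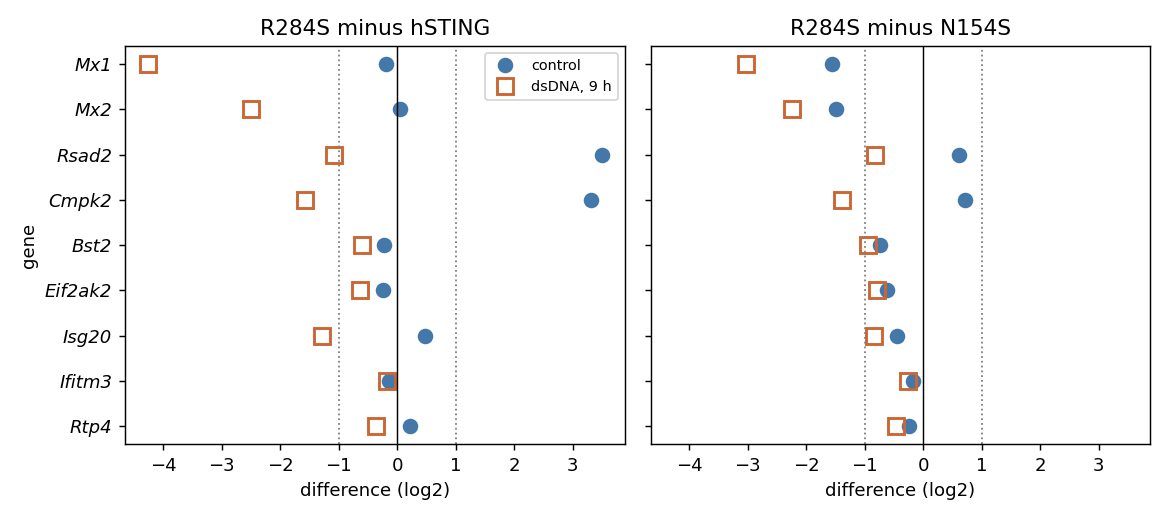
R284S signal minus hSTING signal (left) and minus N154S signal (right), in log2 units, with filled circles for control cells and open squares for cells with dsDNA. Rsad2 and Cmpk2 lie right of 0 in control cells and left of it with dsDNA, and Mx1 and Mx2 lie farthest left with dsDNA, at -4.27 and -2.51 against hSTING. Mx1 was under the floor in R284S cells, so its point stands for at least 6.77-fold lower.

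Vector cells, which had no STING put back, also changed with dsDNA. Rtp4 went from 3.96 to 6.82, at least 5.17-fold, and Cmpk2 from 3.57 to 5.90, at least 2.73-fold (2 of 9, all genes 0.149%). Eif2ak2 read 6.73 and then 7.67, Bst2 8.07 and then 8.84 and Isg20 5.60 and then 6.36, differences of 0.94, 0.77 and 0.76 that stayed under 2-fold. Rsad2 differed by 0.40, from 5.28 to 5.68, although it lies beside Cmpk2. Mx2 read 2.59 and 3.46, both under the floor. With dsDNA in all lines, hSTING and N154S cells were each 2-fold higher than vector cells for 8 of 9 members, against 2.16% and 1.57% of all genes, and R284S cells for 5 of 9, against 1.13%. Eif2ak2, at 8.63 in R284S and 7.67 in vector cells, and Isg20, at 6.72 and 6.36, stayed under 2-fold in that last comparison. Rsad2 was 56.9-fold, 47.2-fold and 26.7-fold higher than in vector cells in hSTING, N154S and R284S cells.

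Across both treatments, each line was compared with vector cells in limma, with line and treatment as additive terms and p-values adjusted by Benjamini-Hochberg over all 22180 genes. The 2 treatments of a line stand in for replicates, so a p-value sets the average difference against the unevenness of the dsDNA effect between lines, not against repeated cultures. In hSTING cells 2 of 9 members rose, where 0.0992% of all genes did. Bst2 was higher by 2.74 (SE 0.20, adjusted p = 0.0150) and Eif2ak2 by 1.68 (SE 0.16, adjusted p = 0.0282). Mx2, at 4.20 with SE 0.52 and a bound of 2.78 from the floor, had an adjusted p = 0.0567. Cmpk2, at 4.83 with SE 0.93 and a bound of 4.39, had an adjusted p = 0.241. Without the N154S arrays 0 of 9 members and 0 of all 22180 genes passed, with 1586 genes at an unadjusted p under 0.05, and without the R284S arrays Mx2 passed too.

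N154S cells had 6 of 9 members that rose, against 0.708% of all genes, and R284S cells 5 of 9, against 1.02%. Bst2 was higher than in vector cells by 3.16 in N154S (SE 0.20, adjusted p = 0.00338) and by 2.33 in R284S (SE 0.20, adjusted p = 0.00386). For Eif2ak2 the differences were 1.95 (SE 0.16, adjusted p = 0.00616) and 1.25 (SE 0.16, adjusted p = 0.0162). Cmpk2 was higher by 6.04 and 5.70, and Rtp4 by 4.44 and 4.09. With vector signals under the floor set to it, those of Cmpk2 became 5.59 and 5.26, and those of Rtp4 4.20 and 3.85. Mx2 rose by 4.83 and 2.96, with bounds of 3.42 and 1.55. Ifitm3 rose by 0.76 in N154S cells (SE 0.11, adjusted p = 0.0319), the smallest change that passed and one that did not pass without the R284S arrays, and read 0.55 higher in R284S cells (adjusted p = 0.0695). Rsad2 missed the threshold in both lines at 4.99 and 4.88, each with SE 0.98, with adjusted p = 0.0702 and adjusted p = 0.0643. Isg20 and Mx1 did not pass in either line. Under the trend and robust options of eBayes, Bst2, Eif2ak2 and Ifitm3 were the 3 members that passed in each of the 3 lines. Without the N154S arrays, Bst2 was the 1 member that passed in R284S cells, where 50 genes rose and 79 fell.

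**Figure D4:**
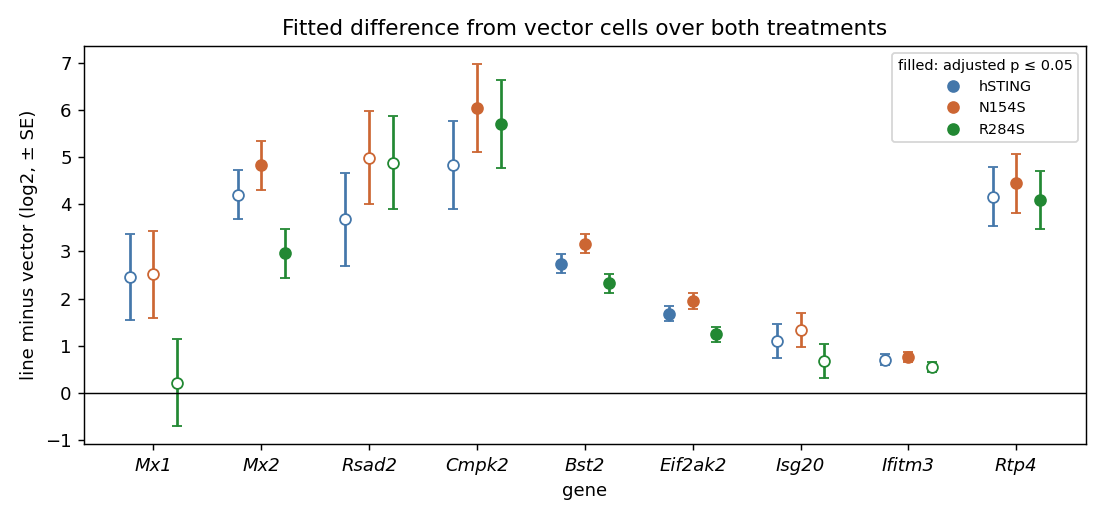
Fitted difference of each STING line from vector cells over both treatments (log2), with bars of 1 SE from the limma fit, filled points for adjusted p at or under 0.05 and open points for the rest. Bst2 and Eif2ak2 have short bars and filled points in all 3 lines, while Rsad2 and Mx1 have long bars and open points.

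Between STING lines the fit called no member in either direction. N154S against hSTING gave 0 of 9 members and 0% of all genes, with 0 members but 1974 genes at an unadjusted p under 0.05. R284S against hSTING gave 0 of 9, where 0.951% of all genes rose or fell, with 3 members and 3037 genes at an unadjusted p under 0.05. For R284S against N154S the counts were 0 of 9 and 0.00902%, with 4 members and 1568 genes at that unadjusted level. Under the trend and robust options no member was called in these comparisons, where for N154S against hSTING 48 genes rose and 77 fell. Mx2 in R284S cells was at -1.86 against N154S (SE 0.52, adjusted p = 0.547). A p-value that misses the threshold does not show that the lines are alike, and for Rsad2 and Cmpk2 the fit averages opposite signs, giving 1.20 and 0.87 for R284S against hSTING.

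The average dsDNA effect over the 4 lines called 0 of 9 members and 0% of all genes, with 5 members and 2395 genes at an unadjusted p under 0.05. Cmpk2 had the largest average, 2.41 with SE 0.66 (adjusted p = 0.448), and Eif2ak2 the smallest unadjusted p at 0.000819, with 0.64 and SE 0.12. Under the trend and robust options 3 genes rose and 1 fell, no member among them. A further fit compared the response to dsDNA of the 3 STING lines with the response of vector cells, and again 0 of 9 members and 0% of genes passed, with 2 members and 798 genes at an unadjusted p under 0.05 and 0 genes called under the trend and robust options. For Rtp4 the effect was smaller in the STING lines by 2.57 (SE 0.28, unadjusted p = 8.11e-05, adjusted p = 0.994), and for Bst2 by 0.63 (unadjusted p = 0.0371). The vector pair leaves no residual in this fit, so the SE and p-values do not cover the error of that pair. They come from the spread of the effect among the 3 STING lines and from variances pooled over genes. The Rtp4 value rests on a vector control signal of 3.96, under the floor, so its size is not read as exact.

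Other genes of the pathway were read from lists, 13 measured interferon signalling genes and 17 other antiviral effectors. Ifnb1, which encodes interferon beta, read 3.18 in vector, 3.21 in hSTING, 2.82 in N154S and 4.06 in R284S control cells, all under the floor. With dsDNA the hSTING line reached 8.80 and the N154S line 4.95, whereas vector at 3.18 and R284S at 3.04 stayed under the floor. The arrays with Mx1 above the floor were thus the same 2 arrays as those with Ifnb1 above it. That match is narrow, as Mx1 in N154S control cells read 4.45 against a floor of 4.47, where Ifnb1 read 2.82. The receptor genes Ifnar1 and Ifnar2 lay between 8.57 and 9.37 on all arrays. Of the interferon signalling genes Stat2, Irf9, Irf7 and Usp18 rose in N154S and in R284S cells in the fit over both treatments, and Irf7 in hSTING cells. Stat2 and Irf9, parts of the complex that interferon activates, were at 3.18 and 1.66 in N154S and at 2.69 and 1.40 in R284S cells against vector cells. Irf7, a transcription factor that amplifies interferon production, was at 5.08 and 3.80.

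Among the other antiviral effectors 3 of 17 rose in hSTING, 11 in N154S and 9 in R284S cells against vector cells, and 1 fell in N154S cells. Of all genes 0.0992%, 0.708% and 1.02% rose in these lines, and 135 of 22180 fell in N154S cells. In control cells 4 of 17 were 2-fold higher in R284S than in hSTING cells (all genes 0.703%). Oasl1, of the oligoadenylate synthetase family, was 17.5-fold higher, Ifit1, which binds viral RNA, 3.81-fold, Ifit2 2.55-fold and the ubiquitin ligase Herc6 2.10-fold. Oasl1 read 3.83 in vector, 6.16 in hSTING, 9.10 in N154S and 10.29 in R284S control cells, the order of Rsad2 and Cmpk2. Oas2, at 4.26, 6.27, 7.51 and 5.72, had R284S below hSTING, as Bst2 and Eif2ak2 did. With dsDNA 9 of 17 were 2-fold lower in R284S than in hSTING cells (all genes 1.74%). In R284S cells 0 of 17 passed 2-fold after dsDNA, near the 0.0676% of all genes that did so. In hSTING cells 13 of 17 were 2-fold higher after dsDNA (all genes 2.01%).

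Relatives of the members were not called. None of 18 related genes was called in any fit or differed 2-fold in any of the 16 comparisons of 2 arrays. Few genes of any kind passed: at most 2.16% of all genes were 2-fold higher in a comparison of 2 arrays. In the main fits at most 1.02% rose, so 0 of 18 does not set these genes apart. The list includes the dynamins Dnm1, Dnm2 and Dnm1l, the kinase Cmpk1, the other eIF2 kinases and the remaining Ifitm and Rtp genes. Ifitm2 read 7.88 to 8.40 where Ifitm3 read 11.49 to 12.35, signals of different probe sets that are not comparable as levels. Eif2ak1 stayed between 7.79 and 8.09, and Eif2ak4 between 5.37 and 5.63. Eif2ak3 read 5.98 in vector, 5.61 in hSTING, 5.28 in N154S and 5.67 in R284S control cells, and 6.12, 5.50, 5.44 and 5.86 with dsDNA. Against vector cells in limma it was at -0.50 in hSTING, -0.69 in N154S and -0.28 in R284S cells. The adjusted p-values were 0.431, 0.0634 and 0.383. Ifitm1, Ifitm6, Ifitm10, Rtp2 and Rtp3, 5 of the 18, were under the floor on every array, and Ifitm5 and Rtp1 on some, so a change there may have gone unseen. Of the partners of PKR measured, Prkra, which activates it, Tarbp2, which binds and restrains it, and the inhibitor Dnajc3, none was called in any comparison. With so few of all genes passing, that does not set the partners apart either.

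Profiles over the 8 arrays were compared as a description. The arrays share lines and treatments, so they are not independent. Rsad2 and Cmpk2 had a Pearson r of 0.982 with each other, and Bst2 and Ifitm3 one of 0.986. With the mean of the other members, r was 0.979 for Mx2 and 0.715, the lowest, for Mx1, which was under the floor on 6 of the arrays. Among 1589 genes outside the list that varied by at least 1 log2 unit and reached the floor, the 10 profiles most like the members' mean had an r of 0.991 to 0.998. They were Parp14, Gbp7, Herc6, Trim25, Tdrd7, Trim34a, Oas1b, Ankfy1, Slfn2 and Erap1. Parp14, an ADP-ribosyltransferase, spanned 5.70 log2 units over the arrays, and Gbp7, an interferon-induced GTPase, 5.63.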

How the data were processed

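Total RNA (300 ng per sample) was labelled with the GeneChip WT PLUS kit for Affymetrix arrays, per the labels' protocols. Affymetrix Expression Console 1.3.1.187 was used, per the submitters' processing notes, with no algorithm named. The values were deposited as log2 signals for 41345 probe sets. The largest gap between arrays at equal rank was 0.25, so the authors' values had been brought to nearly 1 distribution. Probe sets with 1 symbol in the platform annotation (23521) gave 22180 genes, by the highest mean per gene. limma 3.58.1 in R 4.3.3 fitted line and treatment with eBayes, with 3 residual degrees of freedom (2 in the fit of the dsDNA effect in STING lines against vector), a threshold of 0.05 and two-sided tests over all genes. It was run on simulated data in which a gene's dsDNA effect was the same in every line. That run does not check the use of 2 treatments in place of replicates. Comparisons of 2 arrays have no test. The members, lists and rules were chosen with earlier results of these data known. Named genes are the members, list genes on which a result turns and the 10 most like profiles. Some list genes are not analysed here.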

Additional observations from a re-analysis of the deposited data

How the results depend on the processing

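Centring each array on its median and quantile normalization changed no count of members. The mean of probe sets left the members' own signals unchanged, as each has 1 probe set, so only the floor could move. The 2-fold call of Mx1 changed in 3 cases. In N154S control cells Mx1 read 4.45, just under the floor of 4.47 used above. Among the 3 cases was R284S against N154S in control cells, where the count went from 1 to 2. A floor-free count added Mx1 in control cells for N154S against vector, N154S against hSTING and R284S against N154S. The Mx1 differences there were 1.66, 1.37 and -1.56, with both signals under the floor. Counting 3-fold in place of 2-fold gave 0 for R284S against N154S in control cells (all genes 0.0812%) and 0 for N154S against hSTING with dsDNA (0.0947%). It gave 2 for R284S against hSTING with dsDNA (0.649%), and 1 for dsDNA in N154S cells (0.108%). Against vector control cells it gave 5 in hSTING (0.284%), 6 in N154S (0.591%) and 5 in R284S (0.537%). Other counts that fell were N154S against hSTING in control cells, to 2 (0.194%), and, with dsDNA, N154S against vector, to 7 (0.834%), and R284S against N154S, to 2 (0.216%). All these counts use the difference as read, also where the dimmer signal was under the floor. The bound fell short of 3-fold for Mx2 in hSTING and R284S against vector control cells, at 2.6 and 2.69. With dsDNA it fell short for Mx1 in N154S against vector, at 2.93, and in R284S against N154S, at 2.85. In the fits over both treatments, a trend and robust variances gave 3 members for N154S and 3 for R284S against vector. Without the N154S arrays, 0 members, and 0 of all genes, passed for hSTING and 1 member, Bst2, for R284S against vector. Without the R284S arrays Mx2 passed in hSTING cells and Ifitm3 did not pass in N154S cells. Without the hSTING arrays Rsad2 passed in both mutant lines, and Mx1 and Isg20 in N154S cells, and with the filter on dim genes, which drops Mx1, Rsad2 passed in both and Ifitm3 in R284S cells. The cause of these changes was not tested. No value of a member that was called changed sign under any alternative run. The number of arrays, 1 per line and treatment, limits every comparison, and signals under the floor, of Mx1 on 6 arrays, Mx2 on both vector arrays and Cmpk2 and Rtp4 on the vector control array, give bounds only.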

Other observations

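Ifi27, an interferon-induced gene of mitochondrial and nuclear membranes in the list of other antiviral effectors, went against the rest of that list. It read 7.84 in vector, 7.37 in hSTING, 6.23 in N154S and 7.97 in R284S control cells, and 8.06, 6.82, 6.09 and 7.91 with dsDNA. In the limma fit it fell in N154S against vector cells, at -1.79 (SE 0.19, adjusted p = 0.0101), and read -0.01 in R284S against vector cells (adjusted p = 0.989). The difference of R284S from N154S, 1.78, had an adjusted p = 0.0895. Ifi27 was chosen for mention after its values were seen.

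In vector cells given dsDNA, the genes of the interferon signalling list that differed 2-fold were Stat2, Irf9, Irf7 and Usp18. Usp18, which removes the modifier Isg15 from proteins, went from 4.84 to 7.98 there. Ifnb1 read 3.18 on both vector arrays, under the floor, so whether it changed cannot be read. In R284S cells Usp18 read 10.71 and 10.74.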
